A study of Mus musculus with 2 samples.

Results

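The 10 genes described here serve iron storage, haem breakdown and peroxide removal in embryonic mouse brain cells: the ferritin subunits Fth1 and Ftl1, the haem oxygenase Hmox1, the iron exporter Slc40a1, the thioredoxin pair Txn1 and Txnrd1, the peroxiredoxins Prdx1 and Prdx5, the glutathione peroxidase Gpx1 and the superoxide dismutase Sod1. They were taken by symbol, and all 10 are among the 31053 features of both count tables. The cells came from the hypothalamic and thalamic region of CD1 embryos at E15.5 and were sorted for Cd11b (on myeloid cells) together with Cd45 (on cells of blood origin), then sequenced by the 10x Genomics droplet method. The control library pooled 10 embryos of 1 dam. The stressed library pooled 5 embryos, also of 1 dam, which had spent 30 min of each day at 4 °C over the 5 days that ended at E15.5. The labels name no mutant allele or other agent in either group. With 1 library per condition, conditions could not be tested against each other, no replicate checks any difference, and litter, library and stress cannot be told apart.

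Ferritin is a hollow protein shell in which iron is held after the heavy subunit Fth1 has oxidised it, while the light subunit Ftl1 helps the iron core to form. Hmox1 opens the haem ring and frees its iron, and Slc40a1 (ferroportin) is the exporter that carries iron out of the cell, so macrophages that clear red cells use all of them together. Ferritin and ferroportin are controlled in part after transcription: iron regulatory proteins bind a stem-loop near the start of the messenger RNA when iron is scarce and block its translation. Hmox1, Txnrd1, Prdx1 and the ferritin genes are also known targets of the transcription factor NRF2, which binds antioxidant response elements, and of its competitor BACH1, a repressor that haem displaces.

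The stem-loop was looked for in the 5′ untranslated region of annotated transcripts, as the 6-base loop CAGTGN between arms of 5 bases that pair with each other, with an unpaired C before the first arm. It was present in 3 of the 10 genes and in 31 of the 20597 genes searched (0.151%). Each stretch of 30 bases is given in transcript direction, because these are the only members in which it was found, and capitals mark the loop. The Fth1 stretch lies at chr19:9982732-9982761 on the plus strand, the Ftl1 stretch at chr7:45459778-45459807 on the minus strand and the Slc40a1 stretch at chr1:45925464-45925493 on the minus strand (GRCm38).
Fth1: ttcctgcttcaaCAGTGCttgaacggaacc
Ftl1: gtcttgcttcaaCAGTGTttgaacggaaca
Slc40a1: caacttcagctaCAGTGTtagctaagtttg

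The core of the antioxidant response element, TGACNNNGC on either strand, was searched in the 250 bases before the transcript starts of the RefSeq promoter table (GRCm38.p6), which holds 8 of the 10 genes in 11 windows and does not include Hmox1 or Slc40a1. It was found in 3 windows, those of Prdx1, Txnrd1 and Sod1, and in 10.2% of all 32851 windows of the table. The Prdx1 match reads TGACTCAGC on the opposite strand and begins 133 bases before the start, and the shorter letters TGACTCA, also the AP-1 site, occur in 4.46% of all windows. The Txnrd1 match, before a start inside the annotated gene, reads TGACAAAGC and the Sod1 match TGACCACGC, both also on the opposite strand. The windows are given because the members with and without a match in them are named again later. The match is in capitals and the bases are in gene direction. They lie at chr4:116685446-116685494 for Prdx1, chr10:82859094-82859142 for Txnrd1 and chr16:90220686-90220734 for Sod1, all on the plus strand.
Prdx1: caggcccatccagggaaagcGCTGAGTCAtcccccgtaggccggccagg
Txnrd1: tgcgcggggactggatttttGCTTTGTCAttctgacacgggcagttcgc
Sod1: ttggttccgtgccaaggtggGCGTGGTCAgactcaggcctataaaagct

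The deposited tables held 1156 control and 1467 stressed barcodes, with 2833015 and 6582188 UMIs (unique molecules counted), and 1068 and 1407 cells passed the filter. Cells were sorted into classes by the share of their UMIs that fell on marker genes, none of them a member. The microglia-like class, resident brain macrophages by their markers, held 661 control and 1125 stressed cells, all 13 microglial markers were detected in it, and markers of border-associated macrophages (summed 361 and 341 UMIs per 1000000, with Cd163 at 0 in both libraries) and of neural cells (70.7 and 76.1) were low beside those of microglia (8979 and 9130). Depth differed, with a median of 2169 UMIs per microglia-like cell in control and 3964 in stressed. Y-linked transcripts gave 182 UMIs in control and 1 in stressed microglia-like cells, so sex differs along with condition. The libraries shared 13 barcodes, of which 0 were microglia-like in both.

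Among microglia-like cells, both ferritin subunits were read in nearly every cell and hardly differed between the libraries. Levels are given as CPM, the summed UMIs of a gene per 1000000 summed UMIs of the cells, with exact 95% intervals that cover counting error only. Fth1 was at 4448 CPM in control and 4021 CPM in stressed cells, from 7615 and 20503 UMIs. The log2 ratio of stressed over control was -0.15 for Fth1 (-0.18 to -0.11) and -0.16 for Ftl1 (-0.18 to -0.13), with Ftl1 at 11599 CPM in stressed cells. Ferritin UMIs together made up 1.74% of all UMIs in control and 1.56% in stressed microglia-like cells. Fth1 contributed 25.6% of them in control (25.1 to 26.1%) and 25.7% in stressed (25.4 to 26.0%).

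Hmox1 stood at 246 CPM in control and 347 CPM in stressed microglia-like cells, the largest difference of the 10 genes (log2 ratio 0.50, 0.34 to 0.65). Slc40a1, the exporter, was at 99.3 and 116 CPM (log2 ratio 0.22, -0.03 to 0.48). Neither ratio reached 1.5 times, the size at which a gene is counted as higher or lower here. For Hmox1 the side of that line depended on the setting: the ratio was 0.61 with TMM factors, 0.64 in female cells alone and 0.72 without the 10% of cells richest in haemoglobin, and 0.28 after each cell was thinned to 1100 UMIs.

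The thiol system differed by small amounts. Txn1, which reduces disulfides in other proteins, was at 213 CPM in control and 265 CPM in stressed cells (log2 ratio 0.32, 0.15 to 0.49). Txnrd1, the selenoprotein that recharges it with NADPH, was at 59.6 and 48.8 CPM (-0.29, -0.63 to 0.06). Prdx1, a peroxidase that Txn1 serves, was at 1177 and 1358 CPM (0.21, 0.13 to 0.28), and Prdx5, a peroxidase of mitochondria, peroxisomes and cytosol, at 289 and 323 CPM (0.16, 0.02 to 0.31). Gpx1, which removes peroxide with glutathione, was at 1029 and 997 CPM (-0.04, -0.12 to 0.03). Sod1, which turns superoxide into peroxide, was at 55.5 and 46.9 CPM (-0.24, -0.59 to 0.12).

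In stressed microglia-like cells 0 of the 10 genes were 1.5 times higher or more and 0 were 1.5 times lower or more, where 0.733% and 3.28% of the 2591 genes with at least 50 CPM in either library were. The median log2 ratio of the 10 genes was 0.06 and that of all 2591 genes was -0.07, and 5 of the 10 lay above 0. TMM factors, like DESeq2 size factors, moved the median of all genes up by 0.12, after which Gpx1 also lay above 0 (0.07). Relative to the median of all genes, Hmox1, Txn1, Slc40a1, Prdx1, Prdx5 and Gpx1 lay above, and Fth1, Ftl1, Sod1 and Txnrd1 below.

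**Figure D1:**
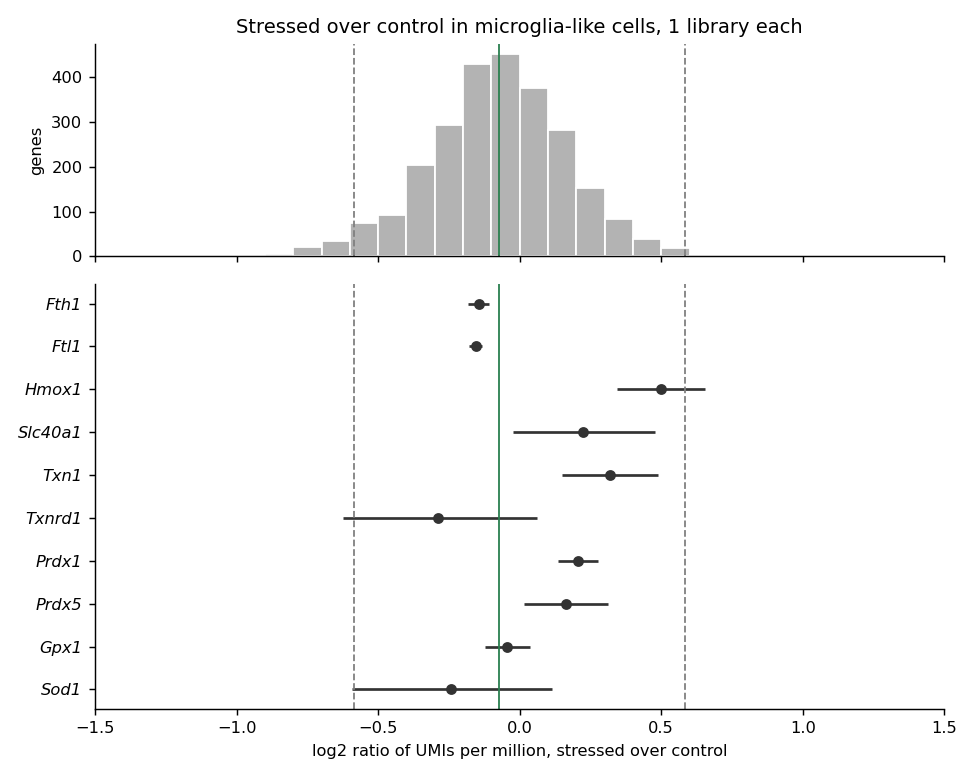
Log2 ratio of stressed over control CPM in microglia-like cells: the upper panel counts all 2591 genes with at least 50 CPM (7 lie outside the axis), and the lower panel shows each of the 10 genes with its 95% counting interval. Dashed lines mark 1.5 times in either direction and the green line the median of all genes. All 10 points lie between the dashed lines, from -0.29 for Txnrd1 to 0.50 for Hmox1.

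Shares of cells with a UMI depend on depth, so each cell was also thinned to 1100 UMIs, which left out 51 control and 5 stressed microglia-like cells. Hmox1 was then read in 14.1% of control cells (86 of 610, 11.4 to 17.1%) and 13.2% of stressed cells (148 of 1120, 11.3 to 15.3%), against 26.8% and 36.3% before thinning. In neural-like cells, which should make little of it, thinned Hmox1 was read in 0 of 170 control cells, which, at the limit of 3 counts used here for a count of 0, allows a share of cells with a UMI of up to 1.76%, and in 3.47% of stressed cells (5 of 144). Those cells had median depths of 1516 and 3075 UMIs before thinning. Slc40a1 was read in 8.52% and 10.7% of thinned microglia-like cells and in 0 of 170 and 1 of 144 neural-like cells. In thinned cells the share with Hmox1 was thus almost equal in both libraries, while before thinning the share and the summed level both differed. The ratio of the summed levels was also smaller in thinned cells, as given above.

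Few cells carried much of the Hmox1. The 1% of microglia-like cells with most Hmox1 UMIs held 43.5% of them in control (7 cells) and 46.0% in stressed (12 cells), and the top cells held 60 and 138 UMIs. For Fth1 the same 1% of cells held 8.02% and 9.94%, for Ftl1 4.70% and 6.08%, and for Gpx1 6.13% and 5.39%. Slc40a1 was in between at 16.5% and 15.7%. Txnrd1 reached 19.6% and 20.1%, though its top cells held 5 and 10 UMIs.

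Cells with at least 20 Hmox1 UMIs per 10000 of their UMIs were therefore set apart as Hmox1-high, a cut chosen after the values were seen. There were 9 such cells among 661 in control (1.36%, exact binomial interval 0.624 to 2.57%) and 31 among 1125 in stressed (2.76%, 1.88 to 3.89%). They held 45.8% of the Hmox1 UMIs of microglia-like cells in control and 62.6% in stressed. Without them Hmox1 was at 134.9 CPM in control and 134.1 CPM in stressed cells (log2 ratio -0.01). This cut took a larger share of the stressed than of the control cells, by their Hmox1 itself. With the same 1% of cells with most Hmox1 UMIs left out in each library, the log2 ratio was 0.44. The highest cells outside the cut had 19.3 UMIs per 10000 in control and 17.3 in stressed. Near the cut, 4 control and 3 stressed cells had 15 to 20 UMIs per 10000, and 2 and 5 cells had 20 to 25.

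Ferritin was high in the same cells. Fth1 was at 17464 CPM in the control Hmox1-high cells against 4280 CPM in the other microglia-like cells, and at 14937 against 3679 CPM in stressed, which is 4.08 times and 4.06 times. In control the 9 cells ranged from 66.2 to 415 Fth1 UMIs per 10000 with a median of 135.0, and the other cells had a median of 31.8. In stressed the 31 cells ranged from 10.0 to 511 with a median of 145 against 29.1. The groups overlapped, but 8 of 9 control and 28 of 31 stressed Hmox1-high cells lay above the 90th percentile of the other cells of their library. Ftl1 was at 28391 against 12724 CPM in control and 27975 against 11086 CPM in stressed, 2.23 and 2.52 times.

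**Figure D2:**
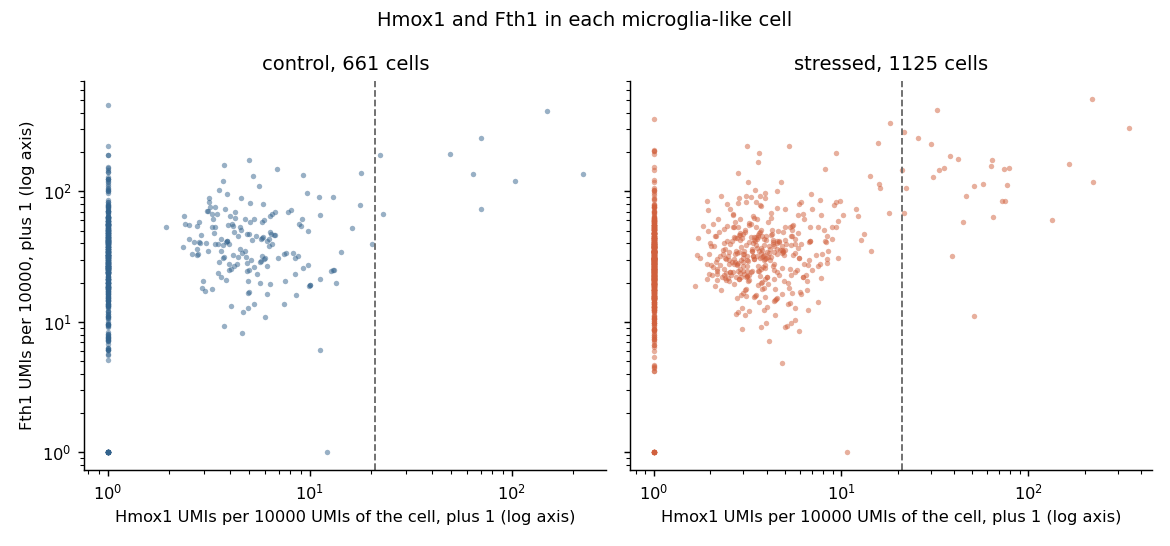
Hmox1 and Fth1 UMIs per 10000 UMIs of each microglia-like cell, plus 1, on log axes, for 661 control (left) and 1125 stressed cells (right). The dashed line marks 20 Hmox1 UMIs per 10000. Most cells to its right, 8 of 9 and 28 of 31, lie above the 90th percentile of Fth1 in the cells to its left (68.8 and 57.6 per 10000).

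Slc40a1, the iron exporter, was also higher. It was at 869 CPM in control and 562 CPM in stressed Hmox1-high cells, against 89.3 and 102 CPM in the others, a log2 ratio of 3.28 (2.51 to 3.97) and 2.46 (2.12 to 2.79). It was read in 6 of 9 and 23 of 31 of these cells, and in 18.7% and 30.2% of the others. Slc40a1 is, beside Fth1 and Ftl1, the member with the 5′ stem-loop. Whether the stem-loop bears on these RNA levels was not tested.

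In summed UMIs, the thiol genes Txnrd1, Prdx1 and Txn1 were at least 1.5 times higher in Hmox1-high cells in both libraries, and Prdx5 was not. Txnrd1 was at 457 and 245 CPM in Hmox1-high cells against 54.4 and 42.7 CPM, from 10 and 38 UMIs (log2 ratio 3.07, 1.96 to 4.01, and 2.52, 1.99 to 3.03). Prdx1 was at 2697 and 4424 CPM against 1157 and 1261 CPM (1.22, 0.82 to 1.59, and 1.81, 1.69 to 1.92). Cell by cell, Prdx1 lay above the 90th percentile of the other cells in 3 of 9 control and 21 of 31 stressed Hmox1-high cells. In stressed its median was 26.0 per 10000 and its highest value 342. Txnrd1 lay above that percentile in 4 of 9 and 12 of 31 cells, with a median of 0 in both libraries. The intervals hold no such variation between cells. Txn1 was at 366 and 639 CPM against 211 and 253 CPM, and in control its 8 UMIs leave an interval that includes 0 (0.80, -0.43 to 1.79). Prdx5 was at 229 and 413 CPM against 289 and 320 CPM. Of the thiol genes, Prdx1 and Txnrd1 have a TGACNNNGC match in a promoter window, Txnrd1 not in all of its windows. Txn1 and Prdx5 have none. A link between match and level was not tested.

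Gpx1 was close to the other cells, at 1143 against 1027 CPM in control and 1001 against 997 CPM in stressed (log2 ratio 0.15, -0.48 to 0.72, and 0.01, -0.23 to 0.24). Sod1 had only 2 and 10 UMIs in Hmox1-high cells (0.73, -2.33 to 2.63, and 0.48, -0.60 to 1.38), so a difference was not detectable at this depth. Sod1 is the other member with a TGACNNNGC match. The windows of Fth1 and Ftl1 hold no match, but they cover only the bases just before the listed starts. Sequence outside the windows was not searched for it, and a link between match and level was not tested. Leaving out Hmox1, which chose the cells, 6 of the 9 other genes were at least 1.5 times higher in both libraries and 0 lower, against 2.84% higher and 3.08% lower of the 2890 genes measured there. A cut of 10 per 10000 gave 5 of 9 (3.81% of 2806 genes), a cut of 40 gave 6 of 9 (3.18% of 3047 genes) and thinned cells gave 6 of 9 (2.12% of 3068 genes).

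**Figure D3:**
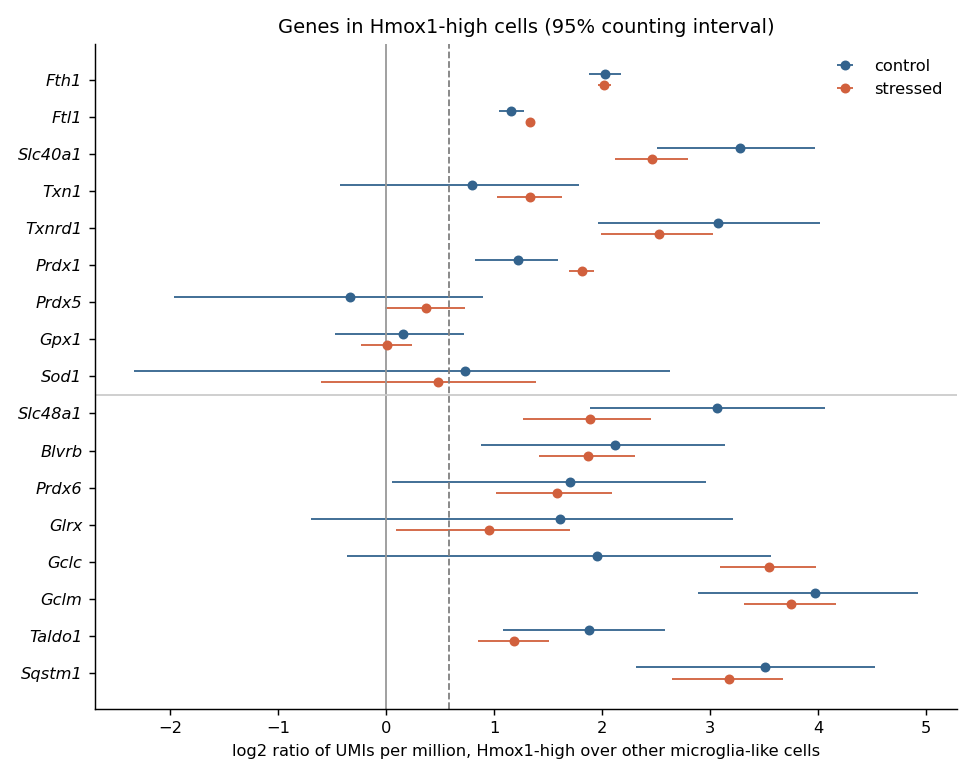
Log2 ratio of CPM in Hmox1-high over other microglia-like cells, by library, with 95% counting intervals, for the 9 genes other than Hmox1 (above the grey line) and the 8 related genes that were at least 1.5 times higher in both libraries (below it). The dashed line marks 1.5 times. Fth1 lies at 2.03 and 2.02, and Gpx1 at 0.15 and 0.01.

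Haemoglobin RNA was also read in these cells. At least 1 haemoglobin UMI was found in 5 of 9 control Hmox1-high cells (21.2 to 86.3%) and in 17.9% of the others (15.1 to 21.1%). In stressed it was found in 15 of 31 (30.2 to 66.9%) and in 32.6% of the others (29.9 to 35.5%), and these intervals overlap. Its level was 1829 and 601 CPM against 101 and 91.0 CPM. Among cells with no haemoglobin UMI, which leaves 4 control and 16 stressed Hmox1-high cells, 4 of the 9 genes (Fth1, Ftl1, Txnrd1 and Slc40a1) were at least 1.5 times higher in both libraries, where 1.25% of 3200 genes were. The part of haemoglobin in the differences was not tested. The median depth of Hmox1-high cells was 2364 and 4677 UMIs against 2164 and 3922, the median mitochondrial share 1.88% and 3.28% against 2.37% and 3.61%, and microglial markers stood at a median of 81.9 and 71.6 per 10000 against 95.9 and 95.6.

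Fth1 was also compared across bins of Hmox1. In stressed microglia-like cells Fth1 was at 3228 CPM in the 717 cells with no Hmox1 UMI, 3859 CPM in 317 cells above 0 and below 5 per 10000, 4861 CPM in 49 cells from 5 to 10, and 14117 CPM in 11 cells from 10 to 20. It was 15991 CPM in 12 cells from 20 to 40 and 14355 CPM in 19 cells at 40 or above. In control the 15 cells from 10 to 20 had 5155 CPM and the 7 cells at 40 or above had 18056 CPM, so the bin just under the cut differed between the libraries. Cells without a Hmox1 UMI were also the shallower ones in comparison with those above 0 and below 5 (median 3474 against 5500 UMIs in stressed). Over all thinned cells the Pearson correlation of Fth1 with Hmox1 was 0.37 in control (610 cells) and 0.43 in stressed (1120 cells), and Spearman's rho 0.12 and 0.23, as a description of cells that share a library.

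Of the 81 genes listed beside the members from the same pathways, 47 were measured in this comparison and 8 were at least 1.5 times higher in both libraries, against 2.84% of all genes measured. The glutathione synthesis genes were among them: Gclm, the modifier subunit of the enzyme that starts it, was at 503 and 433 CPM against 32.0 and 32.2 CPM, and Gclc, the catalytic subunit, at 137 and 387 CPM against 35.5 and 33.2 CPM. Slc48a1, which moves haem out of the lysosome, was at 411 and 181 CPM against 49.1 and 48.9 CPM. Blvrb, a biliverdin reductase that acts after haem oxygenase, was at 366 and 316 CPM against 84.0 and 86.4 CPM. Sqstm1, an autophagy receptor that also binds the NRF2 inhibitor KEAP1, was at 411 and 278 CPM against 36.1 and 30.7 CPM. A gene counted as measured here with at least 50 CPM in the Hmox1-high cells or in the other cells. Gclm, Gclc, Slc48a1 and Sqstm1 were below 50 CPM in the other cells of both libraries. These genes were thus measured only through their level in Hmox1-high cells, so the count of 8 was in part set by that rule.

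Taldo1, an enzyme of the pentose phosphate pathway, was at 777 and 542 CPM against 211 and 238 CPM, Prdx6 at 229 and 213 CPM against 70.4 and 71.4 CPM, and Glrx (glutaredoxin) at 137 and 96.9 CPM against 45.0 and 50.2 CPM. Control values of several of these rest on few UMIs, 3 for Gclc and 3 for Glrx, and the control intervals of these log2 ratios include 0 (-0.37 to 3.57 and -0.70 to 3.21). Srxn1, which repairs over-oxidised peroxiredoxins, was named after its values were seen: it had 34 UMIs in stressed Hmox1-high cells and 26 in all other stressed microglia-like cells, and 1 and 13 in control. Of the thioredoxin and peroxiredoxin list 12 genes were measured, of which 2 (Prdx6 and Glrx) were higher in both libraries and 0 lower. The median log2 ratio of that list in stressed was -0.39, against -0.02 for all genes measured. The stressed medians of the other related lists lay from 0.22 to 0.47. None of the oxidant-source list, with 8 genes measured, was higher in both, which is near the share of all genes measured (2.84% of 2890). Among cells with no haemoglobin UMI, 2 related genes (Slc48a1 and Taldo1) remained at 1.5 times in both libraries, where 1.25% of 3200 genes were.

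Microglial states were set by other markers: cells in S phase, cells in G2 and mitosis, cells with the chemokine genes Ccl3 and Ccl4, cells high in Spp1, and the remaining resting-type cells. Hmox1 was at 354 CPM in control and 363 CPM in stressed resting-type cells. It was lower in cells in S phase (124 and 179 CPM), in G2 and mitosis (167 and 232 CPM) and in Spp1-high cells (156 and 190 CPM). In chemokine cells it was at 265 CPM in control and 882 CPM in stressed, the widest gap between the libraries of any state.

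Hmox1-high cells were counted in each state. They made up 7 of 333 control and 18 of 635 stressed resting-type cells, and 1 of 66 control and 8 of 100 stressed chemokine cells (a share of 3.52 to 15.2%). In S phase they were 0 of 78 and 2 of 132 cells, and in G2 and mitosis 1 of 102 and 3 of 188. The counting intervals of the other states overlapped with that of chemokine cells in each library. None of the 82 control and 70 stressed Spp1-high cells was Hmox1-high, which, at the limit of 3 counts, allows shares of up to 3.66% and 4.29%. In the cells that remain, Hmox1 was at 120 and 125 CPM in resting-type, 156 and 190 CPM in Spp1-high, and 248 and 239 CPM in chemokine cells. The log2 ratio of chemokine over resting-type cells was then 1.04 and 0.94. Because the cells were taken out by their Hmox1, these values describe the remaining cells only.

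**Figure D4:**
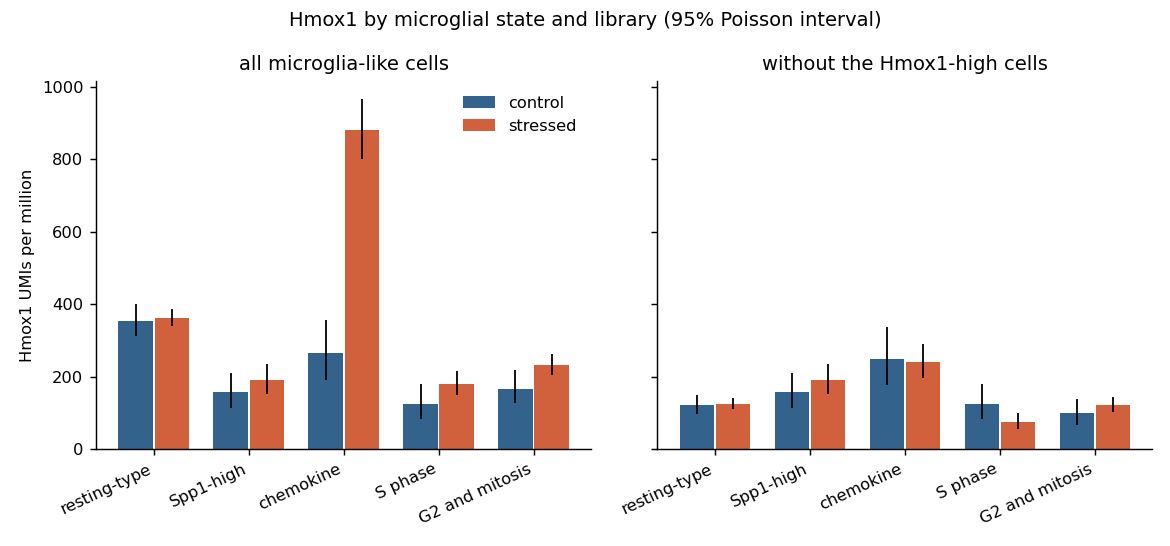
Hmox1 CPM by microglial state in control (blue) and stressed (orange), with 95% Poisson intervals, for all microglia-like cells (left) and without the Hmox1-high cells (right). In stressed chemokine cells the level is 882 on the left and 239 on the right, where control is at 248.

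Each state was then set against resting-type cells. In Spp1-high cells Hmox1 alone of the 10 genes was at least 1.5 times lower in both libraries and 0 were higher, where 5.57% and 5.12% of 2929 genes were. Without Hmox1-high cells, which by construction lowers Hmox1 in resting-type cells and leaves Spp1-high cells as they were, the log2 ratio was 0.38 and 0.60. Chemokine cells had 0 genes higher and 0 lower in both libraries (5.20% and 2.87% of 3001 genes). S phase had 0 higher and 1 lower, Hmox1 (8.25% and 2.06% of 3056 genes), and without the Hmox1-high cells its log2 ratio was 0.044 and -0.74.

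In G2 and mitosis 2 of the 10 genes passed 1.5 times in both libraries, Txn1 higher and Hmox1 lower. This count is near the share of all genes, 14.6% of 3106 in either direction. Of the 453 genes that passed, 96 were lower (3.09% of 3106), so most were higher, as Txn1 was. Txn1 was at 361 and 380 CPM there against 171 and 218 CPM in resting-type cells (log2 ratio 1.08, 0.70 to 1.45, and 0.80, 0.61 to 0.99). Txn1 also supplies electrons to ribonucleotide reductase, the enzyme that makes DNA precursors. In S phase it was at 213 and 254 CPM, and the interval of its ratio to resting-type cells included 0 in both libraries. The Txn1 value stayed at 1.5 times or more in both libraries in each of the alternatives for states, and Hmox1 in G2 and mitosis did not (-0.30 and -0.04 without Hmox1-high cells).

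The ferritins differed less between states. Ftl1 was at 16233 CPM in control and 14115 CPM in stressed Spp1-high cells, and at 17237 and 14887 CPM in chemokine cells, against 12541 and 11772 CPM in resting-type cells (1.20 to 1.37 times). In cells in G2 and mitosis it was at 10337 and 9597 CPM. Fth1 was at 3531 and 3267 CPM in G2 and mitosis and 3631 and 3236 CPM in S phase, against 4738 and 4246 CPM in resting-type cells. Both subunits were thus lower in cycling cells in each library, by less than 1.5 times. Fth1 made up 27.4% and 26.5% of ferritin UMIs in resting-type cells and 21.3% and 24.3% in chemokine cells.

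Border-associated macrophage-like cells, the macrophages of the meninges and vessels by their markers, numbered 67 in control and 19 in stressed. Of the 10 genes, 3 were at least 1.5 times higher there than in microglia-like cells in both libraries and 0 were lower, against 10.5% higher and 13.3% lower of 3211 genes. Fth1 was at 8478 and 6384 CPM (1.91 and 1.59 times), Prdx1 at 1927 and 2200 CPM (1.64 and 1.62 times) and Slc40a1 at 383 and 254 CPM (3.86 and 2.19 times). Hmox1 was at 282 and 283 CPM, and the interval of its ratio to microglia-like cells included 0 in each library. With cell clusters in place of the marker gate, the class held 99 and 77 cells and 0 of the 10 genes passed 1.5 times in both.

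Fth1 made up 37.0% of the ferritin UMIs there in control (35.7 to 38.3%) and 28.7% in stressed (26.9 to 30.6%). Microglia-like cells, at 25.6% and 25.7%, had the lowest part of all classes, so a larger one is not particular to border-associated cells. Neural-like cells had 43.2% and 43.8%, and monocyte- or granulocyte-like cells 37.9% and 37.5%. In border-associated cells Ftl1 was at 14415 and 15837 CPM, 1.12 and 1.37 times the microglia-like level. Among the border-associated cells, 2 of 67 control and 0 of 19 stressed were Hmox1-high.

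**Figure D5:**
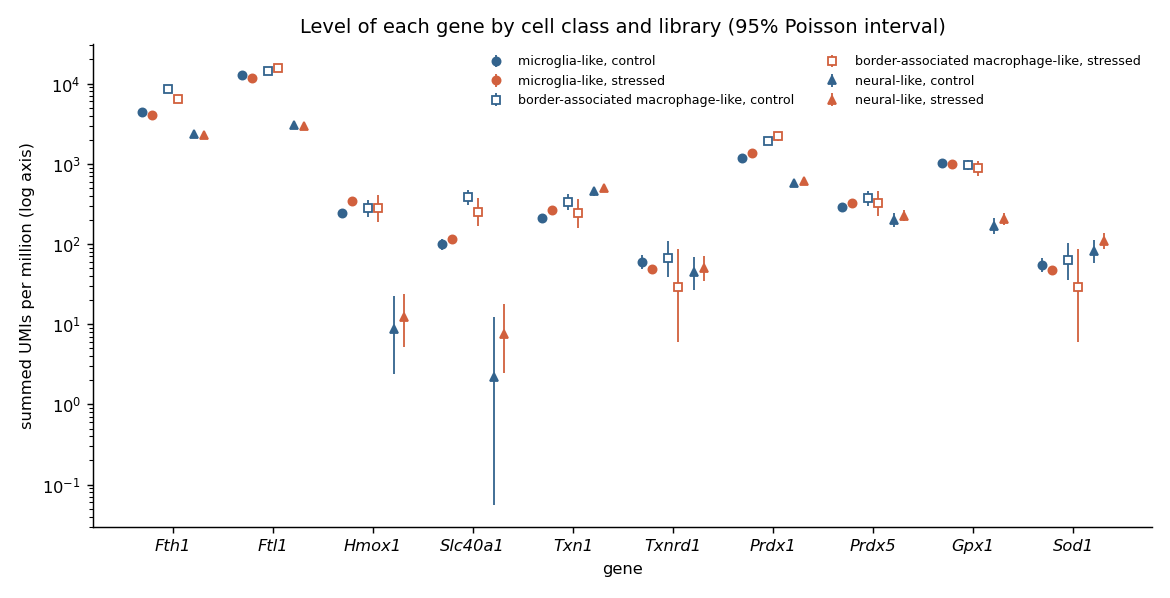
CPM of each gene (log axis) in microglia-like cells (filled circles), border-associated macrophage-like cells (open squares) and neural-like cells (triangles) of the control (blue) and stressed (orange) libraries, with 95% Poisson intervals. Hmox1 and Slc40a1 are the genes with the lowest neural-like levels, 8.84 and 2.21 in control.

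Neural-like cells, 216 in control and 156 in stressed, had less of most members. Compared with microglia-like cells, 6 genes were at least 1.5 times lower in both libraries (22.0% of 4119 genes) and 1 was higher (39.9%). Ftl1 was at 3068 and 2939 CPM (4.21 and 3.95 times lower), Fth1 at 2332 and 2294 CPM, Gpx1 at 170 and 204 CPM and Prdx1 at 581 and 619 CPM. Hmox1 had 4 and 8 UMIs in all (8.84 and 12.2 CPM) and Slc40a1 1 and 5 UMIs (2.21 and 7.61 CPM). Txn1 was the higher gene, at 453 and 495 CPM against 213 and 265 CPM, and Sod1 was at 81.8 and 110 CPM against 55.5 and 46.9 CPM.

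Monocyte- or granulocyte-like cells were few, 18 and 15. Prdx5 was at 1555 and 1174 CPM in them against 289 and 323 CPM in microglia-like cells (log2 ratio 2.43, 1.98 to 2.85, and 1.86, 1.53 to 2.18). Gpx1 was at 2768 and 2178 CPM and Txn1 at 591 and 749 CPM, both above the microglia-like level in each library, and Ftl1 at 6064 and 6448 CPM, below it. The cells that no marker gate took, 93 and 71, had Fth1 at 8848 and 7805 CPM and Ftl1 at 17227 and 14256 CPM. They are a mixed group, and no name is given to them.

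In microglia-like cells the related lists, like the members and most genes, differed little between the libraries. Of 38 related genes with at least 50 CPM, 0 were at least 1.5 times higher and 0 lower in stressed. Among all 2591 genes 0.733% were higher and 3.28% lower, and 96.0% lay within 1.5 times, so counts of 0 are near those shares. The median log2 ratio of the related genes was 0.02. In the iron and haem list the largest ratios were those of Blvra, a biliverdin reductase (-0.25), Lrp1, a receptor for haem bound to haemopexin (-0.24), and Hmox2, the constitutive haem oxygenase (0.23). Txnip, which binds and inhibits thioredoxin, had 0.48, Msrb1 -0.39 and Glrx 0.16. Gpx3, a secreted glutathione peroxidase, had -0.45, Mgst3 0.16 and Gpx4, which protects membrane lipids, 0.10.

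Ncf4 and Ncf1, subunits of the NADPH oxidase, the phagocyte source of superoxide, both had -0.31. The oxidant-source list they belong to did not lie lower as a whole. Of its 7 genes with at least 50 CPM, 4 had a ratio above 0, and the median log2 ratio was 0.006. Pgd, of the pentose phosphate pathway, had -0.41, Bach1 -0.22 and Taldo1 0.18. With TMM factors 2 related genes, Txnip among them, passed 1.5 times.

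Likeness was measured as the Pearson correlation of log2(CPM + 10) over 12 profiles, the microglial states and neural-like cells of both libraries, among 4624 genes. Profiles of a library share its depth, and the neural-like pair stands far from the rest, so these values describe these profiles only. Slc40a1 itself was the fourth most like Hmox1 (0.96), after Rnh1, Pilra and Ncoa3 (0.96 each) and before Rap1b (0.96). For Slc40a1 the leading genes were Ifngr2 (0.99), Rap1b, Creg1, Lyz2 and Ctss. For Ftl1 they included Litaf, Cd63, Clta and C3ar1 (each 0.99), and for Fth1 Sgpl1 (0.96), Ostc, Atp6v0e and Lrp1. Txn1 was most like Pspc1 (0.98), Dnm1l, Tma7, Hikeshi and Hmgn1, and Prdx1 most like Tifab (0.97), Aldoa, Ctsc, Slc25a5 and Igf1.

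In GRCm38 the genes lie at chr19:9980598-9985098 (Fth1), chr7:45457944-45459884 (Ftl1), chr8:75093621-75100589 (Hmox1), chr1:45908068-45926523 (Slc40a1), chr4:57943373-57956411 (Txn1), chr10:82833951-82897712 (Txnrd1), chr4:116685544-116700822 (Prdx1), chr19:6906697-6910106 (Prdx5), chr9:108338903-108340343 (Gpx1) and chr16:90220754-90226329 (Sod1). Some counts are uncertain by sequence. Ftl1 has 11 annotated near-identical copies (at least 95% identity over 100 bases of the last 400), of which Ftl1-ps1 is counted separately, with 439 control and 744 stressed UMIs beside 32486 and 69832 for Ftl1. Adding them left the stressed over control ratio of Ftl1 inside its counting interval. Sod1 has 1 pseudogene copy that the tables do not count. Txnrd1 overlaps Eid3 on the same strand, Prdx5 overlaps Trmt112 on the other strand and Sod1 overlaps Scaf4 on the other strand. The use of strand in counting is not given in the sources used here.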

How the data were processed

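The authors deposited 1 table of raw UMI counts for each library, with genes by cell barcodes. The file headers give software version 3.0.0. Per the submitters' processing notes, the tools were Cell Ranger 3.0.0, STAR and Seurat 2.4 and the build GRCm38.p5 (mm10), and which step used which is not given in the sources used here.

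A cell was kept if it had 500 genes or more and no more than 10% of its UMIs were mitochondrial. Classes and states were gated on marker UMIs per 10000 UMIs of the cell (microglial markers at least 30, border-associated 40, neural 20, monocyte 20, vascular 20, haemoglobin and erythroid 300; S phase, G2 and mitosis and chemokine 15, Spp1 30). Around the microglial cut, 64 control and 49 stressed cells lay within 25% of it. Counts were summed per class and library. No ratio is printed against a sum of 0. Intervals are exact Poisson, Clopper-Pearson or conditional ones at 95%, cover counting error only, and hold no variation between litters. The Poisson and conditional ones also hold no variation between cells. They are too narrow for genes whose UMIs gather in few cells, such as Hmox1. At 1 library per group there was no test. A gene counted as higher or lower at 1.5 times with at least 50 CPM in either group. Counts over all genes leave out ribosomal protein, mitochondrial and haemoglobin genes, Xist, Tsix and the Y-linked genes used to mark male cells. Doublets were kept, since Scrublet marked 2 and 3 cells.

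All 10 members are named, and from each related list the 3 genes with the largest ratios, and beside 6 members the 5 genes most like them. Of the genes these rules pick, 3 are not reported here. The members and lists were chosen with earlier results of these data known. Alternatives were TMM factors (edgeR 4.0.16), size factors (DESeq2 1.42.0), thinned cells, per-cell CPM averaged, Leiden clusters made without the members (scanpy 1.11.5), a filter of 1000 genes and 5% mitochondrial UMIs, the 3.5% highest doublet scores left out, cells outside the cycle, female cells, sums without cells rich in the gene or in haemoglobin, other CPM minimums and 2 times in place of 1.5 times. Chosen after seeing the data were the Hmox1-high cells and sums without them or without shared barcodes. Intervals and calls were tested on simulated Poisson and binomial counts. These do not gather in few cells, so the test cannot show how the intervals do where real UMIs do. Copies were found with blastn 2.17.0, and gene positions come from GENCODE M21 on GRCm38, which held 30934 of the 31053 features. Python 3.11.15 and matplotlib 3.10.9 were used.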

Additional observations from a re-analysis of the deposited data

Results flagged for a closer look

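For 3 of the genes a within-library contrast ran in opposite directions in the 2 libraries, with counting intervals that did not overlap and at least 1 of the ratios past 1.5 times. With 1 library per condition, none of these differences between libraries was tested. The counting intervals hold no variation between cells, so their lack of overlap is a description only. Hmox1 in chemokine over resting-type cells had a log2 ratio of -0.42 in control (-0.92 to 0.05) and 1.28 in stressed (1.11 to 1.45), and without the Hmox1-high cells, of which 1 and 8 were chemokine cells, the ratios were 1.04 and 0.94. Sod1 in S phase over resting-type cells had 1.45 in control, from 20 and 23 UMIs, and -0.21 in stressed, from 24 and 105 UMIs. Prdx1 in monocyte- or granulocyte-like over microglia-like cells had -0.99 in control, from 19 UMIs in 18 cells, and 0.18 in stressed, from 109 UMIs in 15 cells.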

How the results depend on the processing

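No paired analysis was possible because each condition has 1 library. Over 14 alternatives, the stressed over control ratio in microglia-like cells kept its sign in every one for 8 of the 10 genes, the exceptions being Gpx1 (12 of 14, from -0.16 to 0.07) and Hmox1 (13 of 14, from -0.01 to 0.72). The count of members higher was 0, and 1 (Hmox1) with TMM factors, DESeq2 size factors, Leiden clusters, female cells and without the 10% of cells richest in haemoglobin. Related genes higher were 0, and 2 with TMM factors, DESeq2 size factors and the stricter filter, 1 outside the cycle and 4 with no CPM minimum. Related genes lower were 0, and 1 with the stricter filter (Gpx3), outside the cycle (Msrb1) and at 20 CPM (Cat), and 8 with no CPM minimum. Border-associated members higher were 3, and 0 with Leiden clusters, where Sod1 in stressed turned from -0.68 to 0.31. Neural-like members higher were 1, and 2 with the stricter filter. For states, the 1 member lower, Hmox1, became 0 in Spp1-high, S phase and G2 and mitosis cells without Hmox1-high cells or with state markers read in thinned cells, and 2 in S phase (with Prdx5) at state cuts 2 times higher. Members higher became 1 in chemokine cells without Hmox1-high cells (Hmox1), and 1 in S phase without them or with the stricter filter (Txnrd1). With state markers read in thinned cells, control ratios turned to 1.48 (Hmox1, Spp1-high), 0.25 (Slc40a1, Spp1-high) and 0.52 (Hmox1, S phase), and without Hmox1-high cells Hmox1 turned to 0.38 and 0.60 in Spp1-high and 0.044 in control S phase cells. Txnrd1 in stressed S phase cells turned to -0.91 at the higher state cuts, which left 30 cells. In Hmox1-high cells the 8 related genes became 2 among cells with no haemoglobin UMI, which left 4 and 16 cells. The cause was not tested for the other changes. Depth limits Sod1 and Txnrd1 most, at 95 and 102 control UMIs in microglia-like cells.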
